A study of Mus musculus with 6 samples.

Results

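The 37 genes described here encode proteins of the extracellular matrix or mark the hepatic stellate cell. They were taken from a list of gene symbols that was chosen with earlier results of these data known. All 37 were found among the 55471 genes of the count tables. They comprise 14 collagen chains (6 fibrillar and 8 other), 4 glycoproteins of basement membranes, 3 small leucine-rich proteoglycans, 6 glycoproteins, elastic fibre proteins and matrix modifiers, 4 contractile or intermediate filament genes, 5 genes known as markers of the quiescent stellate cell, and the receptor gene Pdgfrb. Enough counts for a test were present for 36 of them, and Tagln was the exception.

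Stellate cells lie between hepatocytes and the sinusoidal endothelium and, while quiescent, store vitamin A in lipid droplets. When activated they are known to lose that store, to make the actin encoded by Acta2, and to secrete fibrillar collagens, the bulk of scar tissue in liver fibrosis. The matrix of a healthy liver is sparse: collagens I and III form fibres around vessels and along sinusoids, basement membrane proteins line vessels and bile ducts, and hepatocytes release fibronectin into plasma.

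RNA was sequenced from whole livers of male wild-type C57BL/6J mice, an inbred laboratory strain. The groups were 3 mice after a 16 h fast and 3 mice after a 4 h fast, with 1 library from each liver. The labels name no transgene and no agent, and the sources used here do not give age, diet or the clock time of collection. Differences are given as log2 fold change ± SE of the 16 h over the 4 h livers, with n = 3 per group, and levels as CPM, the counts of a gene scaled to a common library size that includes TMM factors. In whole liver, fewer cells of a type and less RNA per cell cannot be told apart.

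Counts assigned to genes came to between 16991034 and 25016855 in the 16 h libraries and to between 15173653 and 26572532 in the 4 h libraries. Alb, the hepatocyte marker with the highest CPM, had 55163 to 64179 CPM in 16 h livers and 54516 to 68167 CPM in 4 h livers. Of the 7 hepatocyte markers, Cps1 and Tat rose and Ttr fell, all 3 named after their values were seen. The library of 4 h replicate 3 stood apart by transcripts of lung. The 9 lung markers summed to 8.19, 8.68 and 5.76 CPM in 16 h livers and to 6.40, 5.67 and 190 CPM in 4 h livers, and Scgb1a1, a secreted protein of airway club cells, had 95.05 CPM in 4 h replicate 3. Of the lung markers, 5 could be tested in edgeR and 2 in DESeq2. None passed in either, nor at an unadjusted p under 0.05 in edgeR. With the non-robust fit 1 was lower, and without the filter on low counts 2 of 9 were. Matrix genes are also expressed in lung, and what that tissue contributed to the 4 h values was not tested, so counts over the 36 tested genes and over the related gene lists are given with and without that library. The 7 neutrophil markers summed to 2.002, 4.70 and 2.39 CPM in 16 h livers and 2.24, 2.19 and 15.5 CPM in 4 h livers. In edgeR 0 of 3 tested passed and 1 was lower at an unadjusted p under 0.05, and in DESeq2 0 of 2 passed. Without the filter on low counts 1 of 7 was higher and 1 lower. Sums of 9 Kupffer cell markers were 139, 127 and 116 CPM in 16 h livers and 167, 126 and 230 CPM in 4 h livers. Of the 9 Kupffer cell markers 1 was lower in edgeR, Timd4, named after its values were seen, while 3 were lower in DESeq2 and 4 at an unadjusted p under 0.05. Their median log2 fold change was -0.40 with all libraries and -0.16 without 4 h replicate 3, where none was lower and 1 was higher, and none was lower without any 1 of the 16 h livers. Sums of 10 sinusoidal endothelial markers, of which none passed in edgeR and 1 was higher in DESeq2 and at an unadjusted p under 0.05, were 225, 176 and 201 CPM in 16 h livers and 202, 184 and 194 CPM in 4 h livers.

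After the longer fast 7 of the 36 tested genes were lower and none was higher, by edgeR's quasi-likelihood test with Benjamini-Hochberg adjustment over all 13812 tested genes and a threshold of 0.05. They were the collagen chains Col1a1, Col3a1, Col27a1 and Col6a2, the collagen-binding glycoprotein Sparc, the elastin gene Eln and the actin gene Acta2. Called genes made up 18.7% of all tested genes, 9.51% lower and 9.18% higher. The 19.4% called among the 36 was close to that 18.7%, though all 7 were lower, against 9.51% lower over all genes. At an unadjusted p under 0.05, 14 of the 36 were lower and 1 was higher. The median log2 fold change of the 36 was -0.29, against -0.03 over all tested genes, with 27 below 0 and 9 above it. That median lay between -0.44 without 16 h replicate 1 and -0.12 without 4 h replicate 1, where 14 were above 0. The values of all 6 livers did not overlap between groups, with the 16 h livers lower, for 10 of the 36 genes (27.8%), against 19.7% of all tested genes, and 39.4% of all tested genes were separate in either direction. The same separation with the 16 h livers higher was seen for Fn1 alone of the 36, against 19.7% of all tested genes. Because the 36 genes were chosen with earlier results of these data known, these shares and medians are descriptions only.

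**Figure D1:**
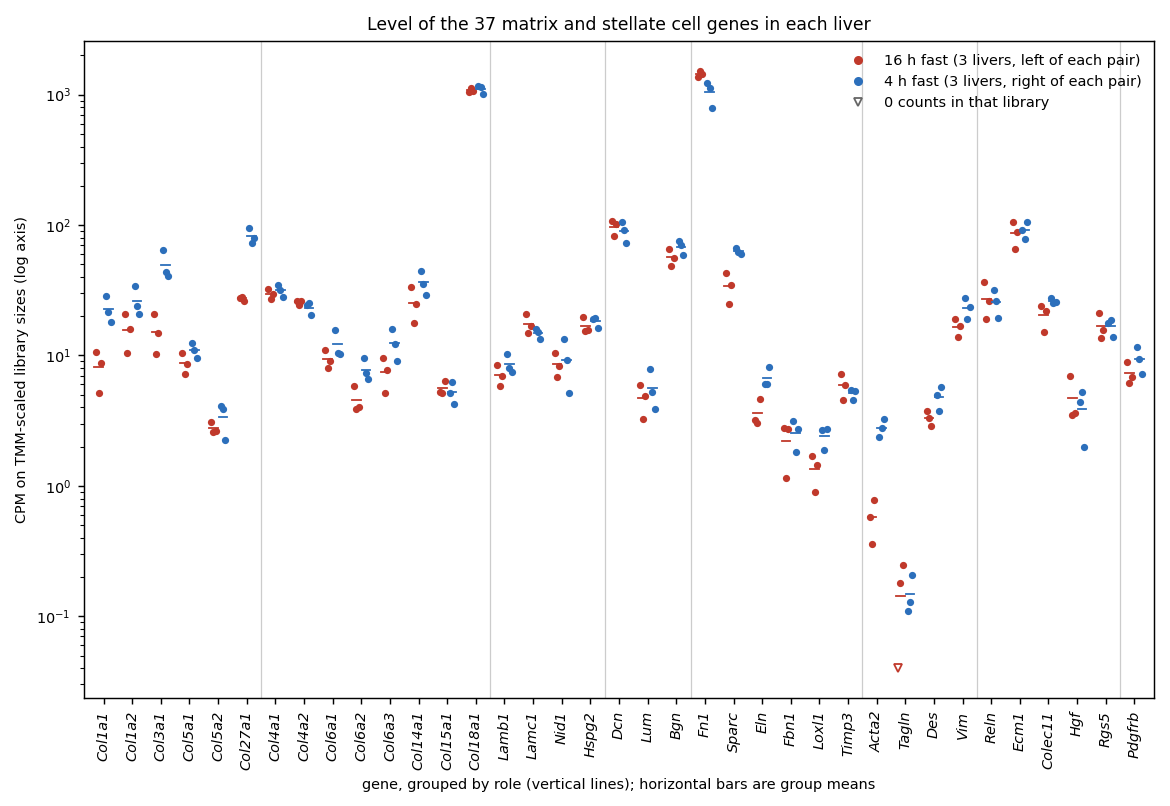
Level of each of the 37 genes in each liver, as CPM on TMM-scaled library sizes on a log axis. Red points left of each pair are the 3 livers after 16 h of fasting, blue points right of it the 3 livers after 4 h, short bars are group means, and the open triangle stands for a library with 0 counts of Tagln. The red points lie below all blue points for 10 genes, among them Col1a1, Col3a1, Col27a1, Sparc and Acta2, and above them for Fn1 alone.

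Without 4 h replicate 3, 8 of the 36 genes were lower and 1 was higher in edgeR, where 20.9% of 14312 tested genes were called, 9.73% lower and 11.1% higher. The 2 added were Col6a3 (-0.90, adjusted p = 0.0312) and Fn1 (0.31, adjusted p = 0.0413). DESeq2 called 9 lower and 1 higher, where it called 20.8% of 13062 genes, 9.79% lower and 11.0% higher.

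Transcripts of 3 of the 6 fibrillar collagen chains fell after the longer fast: to 0.364 of the 4 h level for Col1a1, to 0.308 for Col3a1 and to 0.331 for Col27a1. The other 3, Col1a2, Col5a1 and Col5a2, had negative log2 fold changes that did not pass the test. The median over the 6 chains was -1.10, and 50% were lower, against 9.51% of all tested genes.

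Col1a1, the major chain of the collagen I triple helix, lies on chromosome 11 at 94936224 to 94953042 on the plus strand (GRCm38). It had 10.7, 5.18 and 8.77 CPM in 16 h livers, against 28.7, 21.4 and 18.1 CPM in 4 h livers. Each 16 h liver was below each 4 h liver, and the log2 fold change was -1.46 ± 0.25 (adjusted p = 0.00373). Its partner chain Col1a2, on chromosome 6 at 4504814 to 4541544, had 20.7, 10.5 and 15.9 CPM in 16 h livers, against 34.0, 24.1 and 20.7 CPM in 4 h livers. Its groups were also separate, though 16 h replicate 1 and 4 h replicate 3 nearly met, and the change of -0.74 ± 0.25 did not pass (adjusted p = 0.0729). Col1a2 passed in edgeR without the filter on low counts (adjusted p = 4.18e-05), in DESeq2 (0.0167), and without 16 h replicate 1 (-0.98, adjusted p = 0.028). All annotated exons together span 6563 bases for Col1a1 and 12426 for Col1a2. On these lengths Col1a1 had 1.251 and Col1a2 1.262 CPM per kb after 16 h. After 4 h Col1a1 had 3.46 and Col1a2 2.12 CPM per kb. The order of the pair depends on the lengths used, since in CPM Col1a1 was below Col1a2 in every library.

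Col3a1 encodes the only chain of collagen III, which forms fibres together with collagen I, and lies on chromosome 1 at 45311538 to 45349706 on the plus strand. It had 20.6, 10.2 and 14.9 CPM in 16 h livers, against 64.7, 44.0 and 40.6 CPM in 4 h livers. The lowest 4 h liver was above all 16 h livers, and the log2 fold change was -1.70 ± 0.27 (adjusted p = 0.0039). The promoter of Col3a1 is shown because it had the largest change of the 14 collagen chains and a RefSeq window free of annotated exons. The 250 bases before its RefSeq start, chr1:45311288-45311537 on the plus strand (GRCm38.p6), read 5′ to 3′ as follows. Capitals mark TATAA on the gene's strand, 117 bases before the start, and its overlapping copy on the opposite strand, written as its reverse complement.
Col3a1: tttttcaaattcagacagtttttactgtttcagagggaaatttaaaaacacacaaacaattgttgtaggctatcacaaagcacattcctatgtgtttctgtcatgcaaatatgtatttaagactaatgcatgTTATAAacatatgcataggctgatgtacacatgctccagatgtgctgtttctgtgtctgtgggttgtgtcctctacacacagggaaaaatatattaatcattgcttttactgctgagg

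The neighbouring coding gene on chromosome 1 is Col5a2, 24614 bases from Col3a1 on the opposite strand with 0 coding genes between them. It encodes a chain of collagen V, which sits inside collagen I fibres and helps to start them. Col5a2 had 3.07, 2.59 and 2.64 CPM in 16 h livers, against 4.08, 3.87 and 2.25 CPM in 4 h livers. The 4 h replicate 3 was lower than every 16 h liver, and the change of -0.30 ± 0.25 did not pass (adjusted p = 0.435). Its partner chain Col5a1 had 10.5, 7.17 and 8.60 CPM in 16 h livers, against 12.4, 11.0 and 9.61 CPM in 4 h livers, with overlapping groups and a change of -0.33 ± 0.17 (adjusted p = 0.194).

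Col27a1, a fibrillar collagen chain best known from cartilage, lies on chromosome 4 at 63214004 to 63334991 on the plus strand. It had 27.8, 28.3 and 26.1 CPM in 16 h livers, against 95.8, 72.8 and 79.3 CPM in 4 h livers. It had the smallest adjusted p of the 36 genes (-1.59 ± 0.12, adjusted p = 1.74e-05). The 3 livers after 16 h had nearly the same Col27a1 level, whereas Col1a1 and Col3a1 were spread more widely among them. Col1a1, Col3a1 and Col27a1 each passed in all 14 settings of the fit that were run.

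Of the 8 other collagen chains Col6a2 alone fell, and 7 did not pass. The 8 had a median log2 fold change of -0.24 and 12.5% were lower, against 9.51% of all tested genes. Over all 14 collagen chains 4 were lower (28.6%) and the median was -0.45. Leaving out 16 h replicate 1 raised the number of lower collagen chains to 7, with Col1a2, Col6a3 and Col14a1 added.

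Collagen VI, which forms beaded microfibrils near cell surfaces, is built from the products of Col6a1, Col6a2 and Col6a3. Col6a2, on chromosome 10 at 76595762 to 76623630 on the minus strand, had 5.87, 3.92 and 3.99 CPM in 16 h livers, against 9.49, 7.28 and 6.58 CPM in 4 h livers. The groups did not overlap, and the log2 fold change was -0.76 ± 0.21 (adjusted p = 0.0273). That call was lost when 16 h replicate 2 (adjusted p = 0.111), replicate 3 of the same group (0.119) or 4 h replicate 1 (0.127) was left out. Col6a1, whose gene lies 85161 bases away on the same strand, had 11.0, 8.07 and 9.02 CPM in 16 h livers, against 15.8, 10.4 and 10.3 CPM in 4 h livers. Its groups overlapped, since 16 h replicate 1 exceeded both lower 4 h livers, and the change was -0.38 ± 0.19 (adjusted p = 0.181). Col6a3, on chromosome 1, had 9.56, 5.12 and 7.74 CPM in 16 h livers, against 16.0, 12.2 and 9.09 CPM in 4 h livers. Only 16 h replicate 1 and 4 h replicate 3 crossed, and the change of -0.73 ± 0.25 did not pass (adjusted p = 0.0658), though it did without 16 h replicate 1 (0.0448), without 4 h replicate 3 (0.0312), in DESeq2 (0.0321) and without the filter on low counts (0.000514). A further RefSeq start of Col6a2 lies 226 bases downstream of the one shown. Its window overlaps annotated exons, holds GGGCGG 11, 15 and 67 bases before that start, and is not printed. The promoter of Col6a2 that is free of exons is shown as that of the collagen VI chain that passed. It spans chr10:76623631-76623880 on the minus strand (RefSeq, GRCm38.p6), and the capitals mark GGGCGG, the core of a GC box, found on the opposite strand 175 bases before the start and so written as CCGCCC.
Col6a2: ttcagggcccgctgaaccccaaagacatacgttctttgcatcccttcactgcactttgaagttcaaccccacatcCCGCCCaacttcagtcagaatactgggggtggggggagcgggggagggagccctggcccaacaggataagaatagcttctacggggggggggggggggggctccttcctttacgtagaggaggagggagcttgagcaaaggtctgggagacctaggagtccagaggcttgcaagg

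Col14a1, a fibril-associated collagen, had 33.7, 17.8 and 24.8 CPM in 16 h livers, against 44.6, 35.1 and 29.2 CPM in 4 h livers, with overlapping groups (-0.51 ± 0.23, adjusted p = 0.148). It passed without 16 h replicate 1 (-0.76, adjusted p = 0.0378). The collagens of basement membranes had log2 fold changes near 0 and did not pass. Col4a1 and Col4a2, the chains of the common collagen IV network, start 21 bases apart on opposite strands of chromosome 8, at 11312826 and 11312805. Col4a1 had 32.3, 27.1 and 29.6 CPM in 16 h livers, against 34.9, 32.03 and 28.0 CPM in 4 h livers (-0.09 ± 0.12, 95% interval -0.36 to 0.17, adjusted p = 0.615). Col4a2 had 26.2, 24.3 and 26.1 CPM in 16 h livers, against 24.4, 25.1 and 20.4 CPM in 4 h livers (0.13 ± 0.12, 95% interval -0.12 to 0.39, adjusted p = 0.454). The groups of both genes overlapped. Col15a1, which anchors basement membranes to the tissue beneath, had means of 5.58 ± 0.694 CPM in 16 h livers and 5.26 ± 1.02 CPM in 4 h livers (SD, n = 3 each), with a change of 0.10 ± 0.19 (adjusted p = 0.764).

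Col18a1, whose product carries the fragment endostatin and is made by hepatocytes, had the highest level of the 37 genes per length of exon. It stood at 154 CPM per kb in 16 h livers and 158 CPM per kb in 4 h livers. Fn1 was next, at 124 CPM per kb in 16 h livers and 89.8 in 4 h livers. Dcn, the proteoglycan decorin, had 16.6 and 15.4 CPM per kb in that order. Col18a1 had 1040, 1131 and 1073 CPM in 16 h livers, against 1174, 1143 and 1019 CPM in 4 h livers. The groups overlapped and the 95% interval of the change ran from -0.28 to 0.20 (-0.04 ± 0.11, adjusted p = 0.835). Most of the collagen counts were from Col18a1, and the 14 chains summed to 1267 ± 16.5 CPM in 16 h livers and 1436 ± 134 CPM in 4 h livers. Without Col18a1 the sums were 186 ± 31.0 CPM in 16 h livers and 325 ± 58.1 CPM in 4 h livers.

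**Figure D2:**
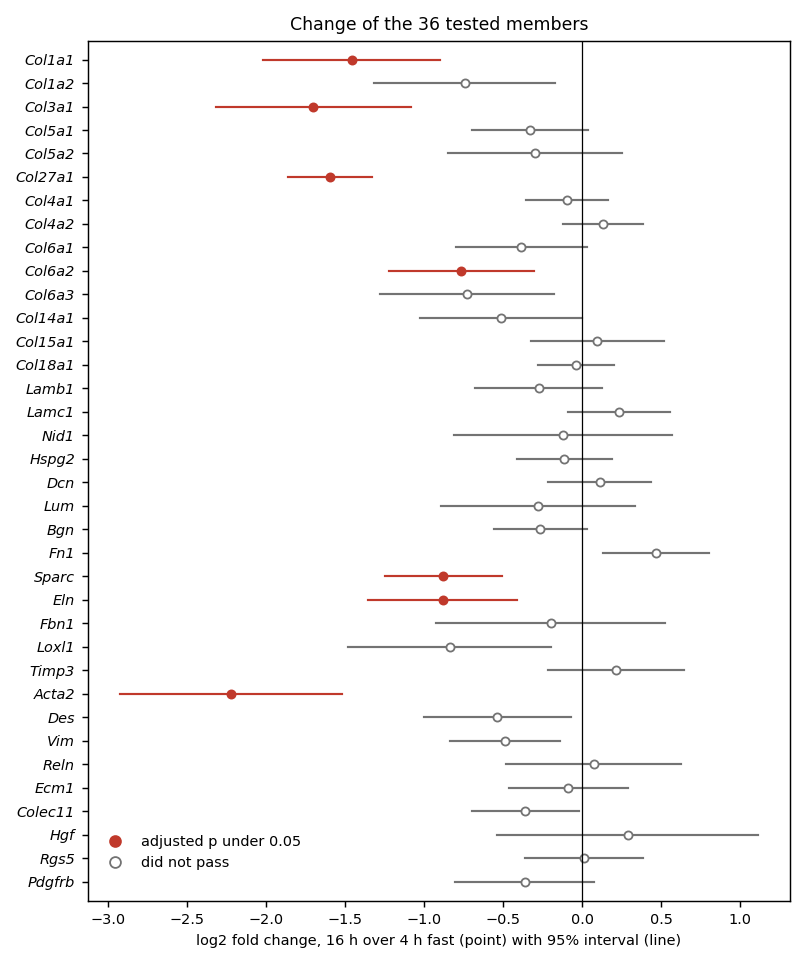
Log2 fold change of the 36 tested genes, 16 h over 4 h fast, as points with 95% intervals from the edgeR fit. Filled red points passed at an adjusted p under 0.05 and open points did not; the 7 filled points all lie left of 0, from Acta2 at -2.22 to Col6a2 at -0.76, and Fn1 is the open point farthest to the right at 0.47.

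None of the 4 glycoprotein genes of basement membranes passed in edgeR or DESeq2, nor at an unadjusted p under 0.05, and their median was -0.12. Lamb1 and Lamc1 encode laminin beta and gamma chains that assemble in the same trimers. Lamb1 had 8.45, 5.84 and 6.999 CPM in 16 h livers, against 10.3, 7.99 and 7.42 CPM in 4 h livers (-0.27 ± 0.18, adjusted p = 0.323). Lamc1 had 20.95, 14.9 and 16.7 CPM in 16 h livers, against 16.0, 15.2 and 13.5 CPM in 4 h livers (0.23 ± 0.15, adjusted p = 0.292). The groups of each gene overlapped. Nid1, which links laminin to collagen IV, had the widest interval of the 4, from -0.81 to 0.57 (-0.12 ± 0.30, adjusted p = 0.817), with 5.17 CPM in 4 h replicate 3 and 13.4 CPM in 4 h replicate 1. Hspg2, the heparan sulphate proteoglycan perlecan, averaged 16.9 ± 2.39 CPM in 16 h livers and 18.3 ± 1.81 CPM in 4 h livers (-0.11 ± 0.14, adjusted p = 0.598).

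Ratios of partner chains within a library do not depend on how libraries are scaled, and 6 pairs were compared. The Col1a1 to Col1a2 ratio of counts was 0.516, 0.494 and 0.552 in 16 h livers, against 0.842, 0.888 and 0.872 in 4 h livers. Its groups lay far apart relative to their spread, at 0.521 ± 0.029 after 16 h and 0.867 ± 0.023 after 4 h (SD, n = 3 each). The Lamb1 to Lamc1 ratio was 0.403, 0.393 and 0.419 in 16 h livers, against 0.642, 0.525 and 0.550 in 4 h livers. The Col4a1 to Col4a2 ratio was 1.23, 1.11 and 1.14 in 16 h livers, against 1.43, 1.27 and 1.37 in 4 h livers. The Col6a1 to Col6a2 ratio was higher in the 16 h livers, at 2.06 ± 0.193 against 1.55 ± 0.12 in 4 h livers, and so was that of Col6a1 to Col6a3, at 1.30 ± 0.242 in 16 h livers against 0.991 ± 0.145 in 4 h livers. Groups did not overlap in these 5 ratios. The exact two-sided permutation p was 0.1 for each of the 5, the smallest that 3 against 3 livers allow, and 0.12 after Benjamini-Hochberg adjustment over the 6 pairs, so none could pass. The Col5a1 to Col5a2 ratio overlapped between groups, at 3.15 ± 0.341 in 16 h livers and 3.39 ± 0.775 in 4 h livers (exact permutation p = 0.8).

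The 3 small leucine-rich proteoglycans, which bind collagen fibrils and set their width, did not pass in edgeR or DESeq2, nor at an unadjusted p under 0.05. Dcn, a gene strongly expressed by quiescent stellate cells and fibroblasts, had 107, 83.1 and 101 CPM in 16 h livers, against 106, 91.7 and 72.3 CPM in 4 h livers. The groups overlapped over most of their range and the change was 0.11 ± 0.15 (95% interval -0.21 to 0.44, adjusted p = 0.635). Lum, the lumican gene 46984 bases from Dcn on chromosome 10, had 5.96, 3.25 and 4.86 CPM in 16 h livers, against 7.84, 5.28 and 3.92 CPM in 4 h livers (-0.28 ± 0.28, adjusted p = 0.516). Bgn, biglycan on chromosome X, had 65.7, 48.7 and 56.1 CPM in 16 h livers, against 75.5, 70.6 and 58.7 CPM in 4 h livers (-0.26 ± 0.14, adjusted p = 0.196). For both genes 1 or 2 of the 16 h livers exceeded the lowest 4 h liver.

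Among the 6 glycoproteins, elastic fibre proteins and modifiers, Sparc and Eln fell and 4 did not pass. The 33.3% lower stood against 9.51% of all tested genes. Sparc, or osteonectin, binds collagen and lies on chromosome 11 at 55394500 to 55423183 on the minus strand. It had 43.2, 24.9 and 35.0 CPM in 16 h livers, against 67.3, 62.6 and 60.0 CPM in 4 h livers. The 4 h livers lay within a narrow range above all 16 h livers, and the log2 fold change was -0.88 ± 0.17 (adjusted p = 0.00506) and passed in all 14 settings. Eln, elastin, on chromosome 5 at 134702593 to 134747323, had 3.20, 3.01 and 4.61 CPM in 16 h livers, against 6.00, 6.06 and 8.09 CPM in 4 h livers. The groups did not overlap (-0.88 ± 0.21, adjusted p = 0.0156), and the call was lost without 16 h replicate 1 (adjusted p = 0.0666) or 16 h replicate 2 (0.0711). Loxl1, an oxidase that cross-links elastin, had 1.69, 0.904 and 1.44 CPM in 16 h livers, against 2.69, 1.87 and 2.72 CPM in 4 h livers, without overlap (-0.84 ± 0.29, adjusted p = 0.0679). Fbn1, the microfibril protein fibrillin on which elastin is laid, averaged 2.22 ± 0.933 CPM in 16 h livers and 2.56 ± 0.693 CPM in 4 h livers (-0.20 ± 0.33, adjusted p = 0.712), with 20.1% of its exon bases shared with an antisense gene.

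Fn1, fibronectin, was the only one of the 11 genes with separate groups whose 16 h livers were the higher ones. It had 1375, 1530 and 1451 CPM in 16 h livers, against 1237, 1120 and 792 CPM in 4 h livers. The library of 4 h replicate 3 was the lowest by far, and the change of 0.47 ± 0.15 did not pass (adjusted p = 0.0548). Fn1 passed without that library (0.31, adjusted p = 0.0413), without 4 h replicate 1 (0.62, adjusted p = 0.0282), in DESeq2 (0.48, adjusted p = 0.0163) and without the filter on low counts (0.48, adjusted p = 0.00251). Timp3, an inhibitor of matrix metalloproteinases, averaged 5.93 ± 1.34 CPM in 16 h livers and 5.13 ± 0.485 CPM in 4 h livers (0.21 ± 0.20, adjusted p = 0.48). An antisense gene shares 21.3% of the exon bases of Timp3.

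Acta2, the smooth muscle actin of activated stellate cells and of vessel walls, had the largest change of the 36 genes. It lies on chromosome 19 at 34241090 to 34255590 on the minus strand. It had 0.578, 0.362 and 0.782 CPM in 16 h livers, against 2.35, 2.77 and 3.24 CPM in 4 h livers. Each 4 h liver was above each 16 h liver, and the log2 fold change of -2.22 ± 0.32 passed in all 14 settings (adjusted p = 0.000876). These levels rest on 38 counts over the 16 h libraries and 169 over the 4 h libraries. Tagln, which encodes an actin-binding protein of contractile cells, had 0, 3 and 6 counts in 16 h libraries and 3, 2 and 4 counts in 4 h libraries. The count of 0 in 16 h replicate 1 allows a level of up to 0.133 CPM, by counting error only. No change in Tagln was detectable at this depth. Antisense genes share 67.9% of its exon bases, which could lower its counts if counting ignored strand.

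The intermediate filament genes Des and Vim, both expressed by stellate cells, did not pass. Des, desmin, had 3.78, 3.31 and 2.88 CPM in 16 h livers, against 4.97, 3.74 and 5.69 CPM in 4 h livers (-0.54 ± 0.21, adjusted p = 0.102). Vim, vimentin, had 19.0, 13.9 and 16.96 CPM in 16 h livers, against 27.4, 18.9 and 23.3 CPM in 4 h livers (-0.49 ± 0.16, adjusted p = 0.0539). In each gene 1 of the 16 h livers was just above the lowest 4 h liver, and Vim passed without 4 h replicate 2 (adjusted p = 0.0229). Pdgfrb, the receptor through which platelet-derived growth factor drives stellate cell growth, had 8.99, 6.15 and 6.88 CPM in 16 h livers, against 11.6, 9.47 and 7.21 CPM in 4 h livers, with overlapping groups (-0.36 ± 0.20, adjusted p = 0.232).

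Smooth muscle also makes Acta2, and 1 of its 4 tested markers was lower as well. The median log2 fold change of the 4 was -0.82, with 3 below 0 and 1 above it. The 7 smooth muscle markers summed to 109, 97.2 and 113 CPM in 16 h livers and to 112, 114 and 78.5 CPM in 4 h livers. Most of that sum was Mylk, a myosin kinase, at 102 ± 7.39 CPM in 16 h livers and 92.3 ± 19.4 CPM in 4 h livers. Smtn, a protein of contractile smooth muscle named after its values were seen, was the 1 that fell (-0.85 ± 0.21, adjusted p = 0.017), a call lost when 16 h replicate 2 (0.0623), replicate 3 of the same group (0.0552) or 4 h replicate 1 (0.0545) was left out. The defining marker Myh11 had 1.65, 0.964 and 1.73 CPM in 16 h livers, against 2.501, 2.90 and 2.30 CPM in 4 h livers, and did not pass (adjusted p = 0.0657). The defining markers Cnn1, Actg2 and Myocd had at most 0.313 CPM in any library. The part of smooth muscle cells in the Acta2 difference was not tested.

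None of the 5 markers of the quiescent stellate cell passed, and their median log2 fold change was 0.01. It was -0.19 without 16 h replicate 1, where all 5 were below 0, and 0.14 without 16 h replicate 2. None passed in any of the 14 settings, DESeq2 included, and 1 of the 5, Colec11, was lower at an unadjusted p under 0.05. Reln, reelin, a secreted glycoprotein, had 36.5, 19.0 and 26.0 CPM in 16 h livers, against 31.97, 26.1 and 19.5 CPM in 4 h livers. Ecm1, extracellular matrix protein 1, known in mouse liver to hold back activation of transforming growth factor beta, had 105, 65.1 and 88.4 CPM in 16 h livers, against 92.0, 78.2 and 105 CPM in 4 h livers. Rgs5, a regulator of G protein signalling found in pericytes, had 21.04, 13.7 and 15.6 CPM in 16 h livers, against 17.7, 18.6 and 13.9 CPM in 4 h livers. In these 3 genes the groups overlapped over most of their range, with 95% intervals from -0.48 to 0.63 for Reln (0.07 ± 0.24, adjusted p = 0.867), from -0.46 to 0.29 for Ecm1 (-0.09 ± 0.17, adjusted p = 0.76) and from -0.36 to 0.39 for Rgs5 (0.01 ± 0.17, adjusted p = 0.971). A log2 change of 1 in either direction lies outside all 3 intervals.

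Hgf, hepatocyte growth factor, had 6.98, 3.49 and 3.62 CPM in 16 h livers, against 4.38, 5.28 and 1.98 CPM in 4 h livers, and the widest interval of the 5 (0.29 ± 0.37, -0.54 to 1.12, adjusted p = 0.623). Colec11, a collectin of the complement system, was the marker with separate groups. It had 24.2, 15.2 and 21.8 CPM in 16 h livers, against 27.7, 25.3 and 25.8 CPM in 4 h livers, and its change of -0.36 ± 0.15 did not pass (95% interval -0.70 to -0.02, adjusted p = 0.127). Per kilobase of exon Ecm1 was the highest of the 5 markers, at 34.2 CPM per kb in 16 h livers and 36.4 in 4 h livers, and Hgf the lowest, at 0.654 CPM per kb in 16 h livers and 0.540 in 4 h livers.

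Promoters of 3 of these markers are shown for comparison with those of Col3a1 and Col6a2, as the RefSeq windows of this group that are free of annotated exons and hold at least 1 of 3 searched motifs. The window of Hgf, also free of exons, held none of them and is not shown. That of Reln spans chr5:22344706-22344955 on the minus strand, that of Ecm1 chr3:95739570-95739819 on the minus strand and that of Rgs5 chr1:169655251-169655500 on the plus strand (GRCm38.p6). Capitals mark GGGCGG in Reln, GGGCGG and TATAA in Ecm1, and CCAAT in Rgs5, the last on the opposite strand and so written as ATTGG.
Reln: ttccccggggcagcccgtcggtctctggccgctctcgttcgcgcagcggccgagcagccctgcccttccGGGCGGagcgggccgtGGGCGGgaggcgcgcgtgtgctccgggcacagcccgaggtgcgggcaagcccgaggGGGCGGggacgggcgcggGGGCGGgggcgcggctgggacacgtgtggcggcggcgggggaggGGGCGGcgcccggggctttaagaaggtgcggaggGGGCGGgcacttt
Ecm1: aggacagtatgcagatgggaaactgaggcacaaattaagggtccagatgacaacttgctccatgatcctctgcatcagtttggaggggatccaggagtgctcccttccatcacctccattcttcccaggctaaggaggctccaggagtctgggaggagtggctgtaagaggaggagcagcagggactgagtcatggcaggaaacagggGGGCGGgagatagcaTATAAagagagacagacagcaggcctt
Rgs5: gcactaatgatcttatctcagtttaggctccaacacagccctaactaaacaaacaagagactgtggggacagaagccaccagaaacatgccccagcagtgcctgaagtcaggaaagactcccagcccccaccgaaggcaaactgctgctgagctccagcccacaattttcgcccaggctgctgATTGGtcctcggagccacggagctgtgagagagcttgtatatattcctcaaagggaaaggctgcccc

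Reln held GGGCGG at 6 places within 181 bases of its start, and Ecm1 held TATAA 27 bases before its start. RefSeq promoter windows were matched for 26 of the 37 genes, and 3 motifs were searched on both strands of the 250 bases before the start. GGGCGG was found in 15 of the 26 genes (57.7%), against 35.4% of 27025 genes with a window. CCAAT was found in 8 (30.8%), against 37.5%, and TATAA in 4 (15.4%), against 25.8%. These matches describe the letters of the windows. The genes Col1a1, Col5a2, Col14a1, Lamc1, Dcn, Lum, Fn1, Eln, Loxl1, Tagln and Pdgfrb were not matched.

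Unlike the sum of the quiescent markers, the sum of the fibrillar collagens separated the 2 groups. Taken alone, Col5a1 and Col5a2 overlapped between groups. Most of the 4 h sum came from the chains that passed, with means of 22.7 CPM for Col1a1, 49.8 for Col3a1 and 82.6 for Col27a1. The summed level of the 6 fibrillar chains was 93.4, 63.9 and 77.0 CPM in 16 h livers, against 240, 177 and 171 CPM in 4 h livers. The summed level of the 5 quiescent markers was 194, 117 and 155 CPM in 16 h livers, against 174, 153 and 166 CPM in 4 h livers. Most of that marker sum was Ecm1, at 86.3 ± 20.2 CPM in 16 h livers and 91.7 ± 13.4 CPM in 4 h livers. The fibrillar sum did not overlap between groups, with means of 78.1 ± 14.8 CPM in 16 h livers and 196 ± 38.1 CPM in 4 h livers. The marker sum did, with means of 155 ± 38.7 CPM in 16 h livers and 164 ± 10.3 CPM in 4 h livers (SD, n = 3 each). Their ratio was 0.481, 0.548 and 0.495 in 16 h livers, against 1.38, 1.16 and 1.03 in 4 h livers. For Col1a1 and Col3a1 alone the ratio to the quiescent markers was 0.161, 0.132 and 0.153 in 16 h livers, against 0.537, 0.426 and 0.353 in 4 h livers. These sums and ratios are descriptions and were not tested.

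**Figure D3:**
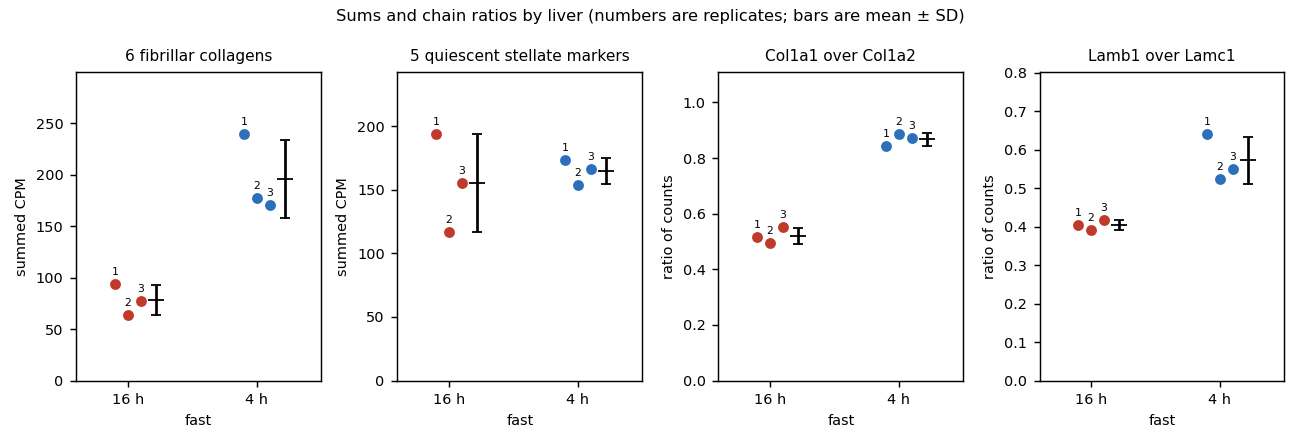
Summed CPM of the 6 fibrillar collagens and of the 5 quiescent stellate markers, and the count ratios of Col1a1 to Col1a2 and of Lamb1 to Lamc1, in each liver. Red points are livers after 16 h and blue points livers after 4 h, numbered by replicate, and bars are mean ± SD of 3; fibrillar sums lie between 63.9 and 93.4 CPM in 16 h livers and between 171 and 240 CPM in 4 h livers, while the marker sums overlap.

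Among 13 further stellate cell markers 12 were tested and 1 fell, Sod3, an extracellular superoxide dismutase named after its values were seen. Sod3 had 20.997, 11.9 and 16.3 CPM in 16 h livers, against 25.7, 23.3 and 29.0 CPM in 4 h livers, without overlap. It fell by 0.66 on the log2 scale (adjusted p = 0.028 in edgeR), a call lost on leaving out replicate 2 (0.0956) or 3 (0.0945) of the 16 h group, or replicate 1 (0.0638) or 3 (0.112) of the 4 h group. Vipr1, with the highest CPM of the 13, had 30.4, 27.5 and 31.9 CPM in 16 h livers, against 28.1, 23.7 and 26.5 CPM in 4 h livers (0.20, adjusted p = 0.249). Lrat, which esterifies retinol for storage and was named after its values were seen, had 12.9, 5.91 and 8.69 CPM in 16 h livers, against 13.0, 13.3 and 10.8 CPM in 4 h livers (-0.42 ± 0.24, adjusted p = 0.245). It passed without 16 h replicate 1 (-0.74, adjusted p = 0.041). The 13 summed to 127, 92.9 and 115 CPM in 16 h livers and to 134, 121 and 131 CPM in 4 h livers, which overlapped. The median log2 fold change of the 12 tested was -0.41, beside -0.45 for the 14 collagen chains and 0.01 for the 5 quiescent markers. The defining marker Gfap was not tested, at no more than 0.709 CPM in any library.

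Portal fibroblasts and mesothelial cells also make fibrillar collagens, and their marker sums did not overlap between the groups. The 9 portal fibroblast markers summed to 9.74, 7.83 and 10.2 CPM in 16 h livers and to 15.2, 13.5 and 13.6 CPM in 4 h livers. Of these 5 were tested and none passed in edgeR or DESeq2, though 2 were lower at an unadjusted p under 0.05, with Dpt, dermatopontin, the highest in CPM at 5.34, 2.83 and 3.87 CPM in 16 h livers and 7.36, 6.64 and 5.22 CPM in 4 h livers (-0.67, adjusted p = 0.0693). In edgeR 1 portal fibroblast marker was lower without 16 h replicate 1, and 1 with the replicate number as a block. Without 4 h replicate 3, 6 were tested and 1 was lower. The defining markers Thy1, Gli1, Clec3b and Pi16 had at most 0.883 CPM in any library. The 5 mesothelial markers summed to 3.29, 1.69 and 3.05 CPM in 16 h livers and to 5.26, 4.12 and 5.27 CPM in 4 h livers. Of 3 tested Msln, named after its values were seen, was lower (-1.58 ± 0.46, adjusted p = 0.0334), and it lost the call without any 1 library other than 4 h replicate 2, with adjusted p values up to 0.127. Without any 1 of the 16 h livers, or without 4 h replicate 3, 4 of the markers were tested and 1 was lower, a marker that had too few counts for a test with all libraries. With all libraries the median log2 fold change was -0.60 for the 5 tested portal fibroblast markers. It was -0.56 for the 3 tested mesothelial markers, and all of these markers were below 0. The part of these cells in the collagen differences was not tested. Cholangiocyte markers summed to 44.9, 37.5 and 37.1 CPM in 16 h livers and to 57.4, 41.4 and 48.4 CPM in 4 h livers, with 0 of 5 tested passing in edgeR or DESeq2 and 1 lower at an unadjusted p under 0.05.

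Within each group the livers differed in the level of most of these genes at once. In the 16 h group replicate 1 was the highest liver for 30 of the 36 genes and replicate 2 the lowest for 32, against 32.001% and 33.7% of all tested genes. In the 4 h group replicate 1 was the highest for 26 and replicate 3 the lowest for 26, against 28.9% and 40.9% of all tested genes. The median deviation from the group mean over the 36 genes was 0.27 in 16 h replicate 1 and -0.26 in 16 h replicate 2, and 0.24 in 4 h replicate 1 and -0.20 in 4 h replicate 3, on the log2 scale. All 5 quiescent markers were highest in 16 h replicate 1 and lowest in 16 h replicate 2. Col27a1, Col15a1, Col18a1, Fn1, Eln, Acta2 and Des did not follow that order in the 16 h group, and Acta2 and Eln were highest in replicate 3 of both groups.

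**Figure D4:**
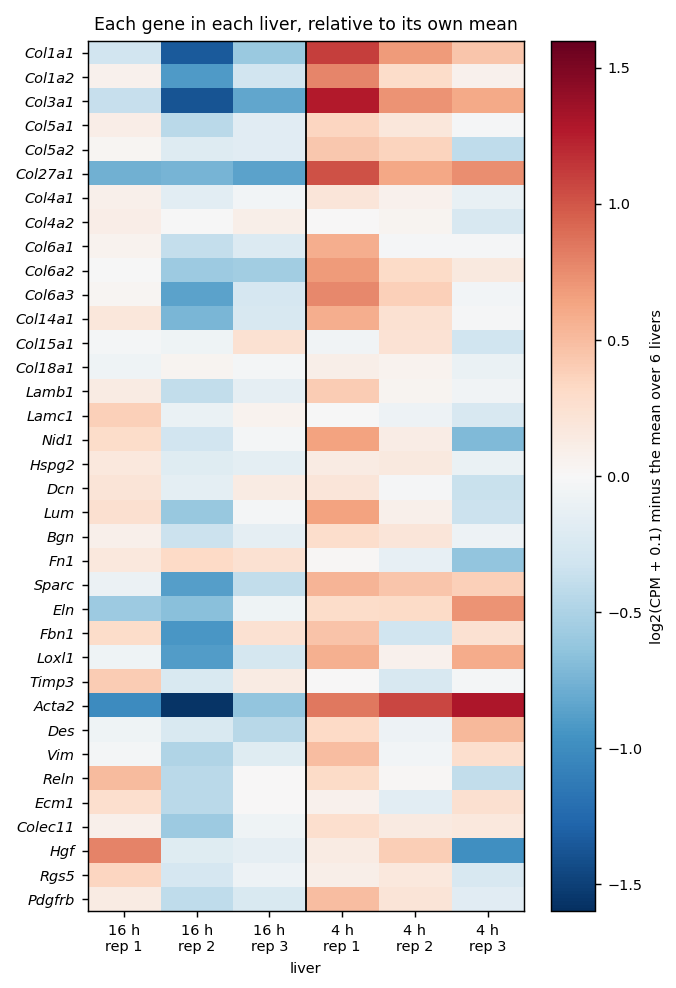
Level of the 36 tested genes in each liver as log2(CPM + 0.1) minus the gene's mean over the 6 livers, red above and blue below that mean, with 16 h livers left of the line and 4 h livers right of it. Rows for Col1a1, Col3a1, Col27a1 and Acta2 are blue in all 16 h livers and red in all 4 h livers, and the column of 16 h replicate 2 is the bluest of its group in most rows.

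The machinery that folds, trims and cross-links collagen changed in both directions. Of 29 listed genes 26 were tested, 7 fell, 4 rose and 15 did not pass, with a median of -0.42. The 42.3% called stood against 18.7% of all tested genes. This list and the related lists below were chosen with earlier results of these data known, so their shares are descriptions only. With replicate 2 or 3 of the 16 h group or replicate 1 of the 4 h group left out, 3 fell and 2 rose. Serpinh1, the collagen chaperone of the endoplasmic reticulum, had 6.09, 4.04 and 3.99 CPM in 16 h livers, against 18.8, 19.1 and 16.5 CPM in 4 h livers (-1.94 ± 0.18, adjusted p = 4.68e-05). Pcolce, which enhances removal of the collagen C-propeptide, had 4.89, 4.82 and 4.90 CPM in 16 h livers, against 8.79, 9.15 and 10.1 CPM in 4 h livers (-0.94 ± 0.15, adjusted p = 0.0014). In both genes all 16 h livers were lower than all 4 h livers. Ppib, a prolyl isomerase that acts on collagen, fell to 35.6 ± 1.06 CPM in 16 h livers, against 60.8 ± 6.63 CPM in 4 h livers (-0.77 ± 0.11, adjusted p = 0.0008), with 25.0% of its exon bases shared with an antisense gene. The 4 that rose, named after their values were seen, were P3h1, Colgalt1, Mia3 and Bmp1. Bmp1, the proteinase that removes the C-propeptide, had 239, 238 and 261 CPM in 16 h livers, against 167, 150 and 157 CPM in 4 h livers (0.63 ± 0.11, adjusted p = 0.00188). It opposed its enhancer Pcolce in direction, and both passed in all 14 settings. The calls of P3h1 and Mia3 were lost without 16 h replicate 2 (adjusted p = 0.0921 and 0.181), without 16 h replicate 3 (0.0983 and 0.077) or without 4 h replicate 1 (0.054 and 0.102), and that of Mia3 also without 16 h replicate 1 (0.123).

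Of 11 tested genes of matrix turnover, out of 19 listed, 2 rose and 1 fell (27.3% called, against 18.7% of all tested genes), and 1 rose without 16 h replicate 1 or 16 h replicate 3. The membrane-bound metalloproteinases went apart: Mmp14 had 47.1, 44.0 and 51.8 CPM in 16 h livers, against 31.1, 23.1 and 26.1 CPM in 4 h livers (0.83 ± 0.13, adjusted p = 0.00126). Mmp15 had 35.8, 31.0 and 32.2 CPM in 16 h livers, against 65.3, 57.8 and 65.8 CPM in 4 h livers (-0.93 ± 0.11, adjusted p = 0.000214). Neither overlapped between groups. Adamts1, a secreted proteinase that cleaves proteoglycans, rose by 0.70 ± 0.18 (adjusted p = 0.0191), a call lost without 16 h replicate 1 (0.0808) or 16 h replicate 3 (0.0543).

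Of 27 genes of transforming growth factor beta and platelet-derived growth factor signalling, the main inducers of collagen in stellate cells, all were tested, 4 rose and 1 fell, with a median of -0.09. The 18.5% called was close to the 18.7% of all tested genes, and 2 rose with plain library totals and on leaving out replicate 1 or 3 of the 16 h group or replicate 1 of the 4 h group. Skil, which restrains Smad transcription factors, rose to 18.7 ± 2.46 CPM in 16 h livers, against 10.2 ± 1.02 CPM in 4 h livers (0.88 ± 0.14, adjusted p = 0.00166). The matricellular genes Ccn2 and Ccn1, which are induced by growth factors and by stretch, went opposite ways. Ccn2 had 10.8, 9.22 and 9.35 CPM in 16 h livers, against 5.70, 5.93 and 4.54 CPM in 4 h livers (0.86 ± 0.16, adjusted p = 0.00373), with 23.2% of its exon bases shared with an antisense gene. Ccn1 had 5.74, 3.92 and 7.04 CPM in 16 h livers, against 9.53, 7.67 and 13.4 CPM in 4 h livers (-0.86 ± 0.24, adjusted p = 0.0311). The call of Ccn1 was lost on leaving out replicate 1 (0.0828) or 2 (0.11) of the 16 h group, or replicate 1 (0.0544) or 3 (0.073) of the 4 h group. The other 2 that rose, Tgfbr3 and Pdgfc, were named after their values were seen, and their calls depended on single libraries. Tgfbr3 lost its call without any 1 library other than 4 h replicate 3, with adjusted p values up to 0.157. Pdgfc lost it on leaving out replicate 1 (0.142) or 3 (0.0783) of the 16 h group, or replicate 1 (0.0532) or 3 (0.0604) of the 4 h group.

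Among 38 tested genes of other matrix proteins, out of 45 listed, 4 fell and 3 rose, with a median of -0.26. The 18.4% called was close to the 18.7% of all tested genes, and 2 fell on leaving out replicate 2 or 3 of the 16 h group or replicate 1 of the 4 h group, with 1 higher in the first of these. Col5a3, a further chain of collagen V, had 44.0, 41.1 and 48.3 CPM in 16 h livers, against 123, 103 and 85.1 CPM in 4 h livers, with no overlap (-1.22 ± 0.14, adjusted p = 0.000197). Per kilobase of exon it was the most abundant collagen V chain, at 6.53 CPM per kb in 16 h livers and 15.2 in 4 h livers, against 1.03 and 1.30 CPM per kb for Col5a1. Tnxb, tenascin X, which lies along collagen fibrils, had 20.6, 14.5 and 16.9 CPM in 16 h livers, against 37.4, 30.6 and 25.6 CPM in 4 h livers (-0.85 ± 0.16, adjusted p = 0.00473). Lamb3, a laminin beta chain of epithelia, had 12.5, 8.38 and 13.1 CPM in 16 h livers, against 4.93, 5.03 and 4.60 CPM in 4 h livers (1.23 ± 0.18, adjusted p = 0.00109). All 16 h livers were above all 4 h livers for Lamb3, whereas the groups of Lamb1 overlapped. The others that passed, named after their values were seen, were Lama3 and Igfbp7, which fell, and Lamc3 and Col13a1, which rose. Without 16 h replicate 2 these 4 did not pass, at adjusted p values of 0.126, 0.0982, 0.119 and 0.0502 in that order. Lama3, Igfbp7 and Lamc3 also lost the call without 16 h replicate 3 (0.161, 0.0692 and 0.136) or 4 h replicate 1 (0.0548, 0.0708 and 0.0685), Lama3 and Lamc3 without 4 h replicate 3 (0.0791 and 0.0519), and Lama3 without 4 h replicate 2 (0.0994).

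Of 19 tested receptors for matrix proteins, out of 21 listed, 6 rose and 3 fell, with a median of 0.09. The 47.4% called in this list, also chosen with earlier results known, stood against 18.7% of all tested genes. None fell on leaving out 16 h replicate 3, against 1 when replicate 2 of that group or 4 h replicate 1 was left out. Itga2, the collagen-binding integrin alpha chain, had 2.45, 6.03 and 4.90 CPM in 16 h livers, against 0.257, 0.709 and 0.418 CPM in 4 h livers. Every 16 h liver was above every 4 h liver, and the log2 fold change was 3.34 ± 0.43 (adjusted p = 0.000485). Itga5, the alpha chain of the main fibronectin receptor, rose to 35.96 ± 2.04 CPM in 16 h livers, against 23.7 ± 0.811 CPM in 4 h livers (0.60 ± 0.10, adjusted p = 0.00248). Sdc1, the main syndecan of hepatocytes, rose to 268 ± 22.4 CPM in 16 h livers, against 155 ± 14.1 CPM in 4 h livers (0.79 ± 0.12, adjusted p = 0.000945). These 3 calls held in all 14 settings. The 3 receptors that fell were named after their values were seen: the integrin chain Itga8, the collagen-binding kinase Ddr1 and the syndecan Sdc3. They lost the call without 16 h replicate 3, with adjusted p values of 0.0596, 0.0603 and 0.0716 in that order. Itga8 and Ddr1 also lost it without 16 h replicate 2 (0.0554 and 0.0878) or 4 h replicate 1 (0.0618 and 0.0677), and Ddr1 without 16 h replicate 1 (0.0767) or 4 h replicate 3 (0.0506).

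Without 4 h replicate 3 the genes of collagen folding and cross-linking had 5 higher and 5 lower, those of matrix turnover 2 higher and 1 lower, and those of growth factor signalling 4 higher and 0 lower. The other matrix proteins then had 2 higher and 3 lower, and the receptors 6 higher and 2 lower.

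**Figure D5:**
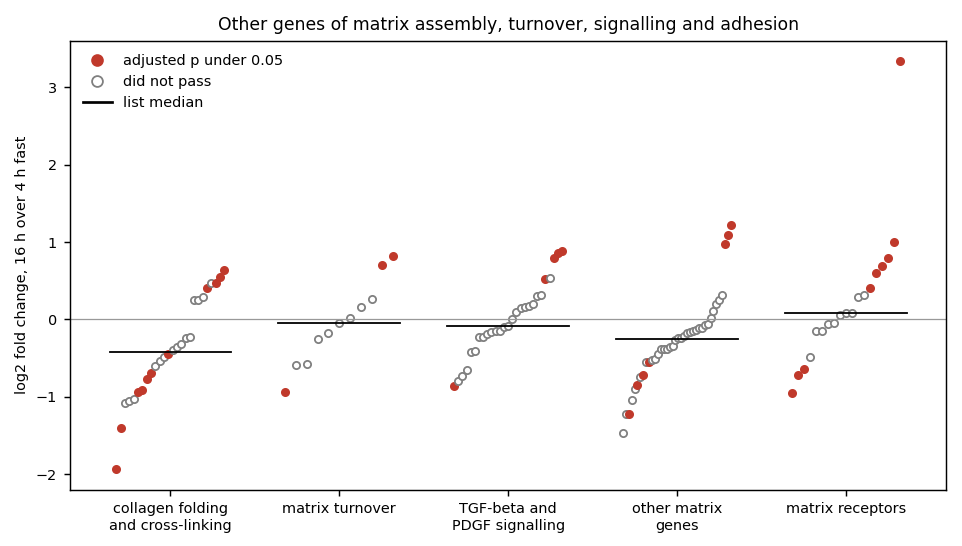
Log2 fold change, 16 h over 4 h fast, of each tested gene in 5 lists of related genes, with genes of a list spread sideways in order of their change. Filled red points passed at an adjusted p under 0.05, open points did not, and black lines are list medians, from -0.42 for folding and cross-linking to 0.09 for receptors; the highest point is Itga2 at 3.34 and the lowest Serpinh1 at -1.94.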

How the data were processed

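Total RNA of 6 livers was sequenced, 1 library per mouse, and samples were grouped by the fasting time in their labels. Per the submitters' processing notes, the tools named are Trimmomatic, FastQC, STAR, HTSeq and DESeq2, with the build GRCm38 (mm10). The sources used here do not give versions, read layout, strand setting or annotation release. Each deposited table holds raw counts for Ensembl genes, which the authors had not normalised. The 5 summary lines of each table were left out of library sizes and tests, and reads outside genes made up 6.44% to 7.14% of tallied reads and ambiguous reads 5.78% to 6.59%. If counting ignored strand, a read shared by exons of genes on opposite strands is not assigned to either. Overlap with antisense genes is therefore given where it covers at least 15% of exon bases.

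Symbols, positions, exon lengths and overlaps came from GENCODE M21 on GRCm38, which held 55230 of the 55471 identifiers (99.57%). Exon length is the merged length of all annotated exons of a gene, so levels per kilobase depend on which transcripts are annotated. Promoter sequences are RefSeq's on GRCm38.p6. Genes kept by filterByExpr, 13812 with 99.88% of the counts, were fitted with edgeR 4.0.16 in R 4.3.3, with TMM scaling and a robust quasi-likelihood test of the fasting group. P-values are two-sided and adjusted over all tested genes (Benjamini-Hochberg, threshold 0.05). The fit gave a biological coefficient of variation of 14.3%, and from it came SE and 95% intervals, and ratios of chains were compared by exact permutation. Libraries of a group differed well beyond sampling noise, with chi-square per degree of freedom between 17.3 and 68.5, so each counted as 1 replicate. A count of 0 was read as up to 3 counts, which covers counting error alone because no molecular identifiers are described. Alternatives were other scalings, other filters, DESeq2 1.42.0, a non-robust fit, the replicate number as a block and leaving out each library, 14 settings in all with the one reported.

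The 37 genes, the related gene lists and the cell type markers were chosen with earlier results of these data known. All 37 genes could be named, as could up to 3 passing genes of each related list, by smallest adjusted p, and the most abundant gene of each marker list. Any other gene is said to have been named after its values were seen, except marker genes given as defining their cell type. 1 further cell type marker is not reported here, and the sums and counts of its list leave it out.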

Additional observations from a re-analysis of the deposited data

How the results depend on the processing

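Set against the reported log2 fold changes of the 36 tested genes, 422 values under an alternative kept direction and side of the threshold, 21 newly passed, 5 lost the call and 20 changed sign. No gene that passed changed sign in any of them. With plain library totals Rgs5 stood at -0.0052. Leaving out 1 library at a time gave changes from -0.16 to 0.0015 for Col4a1, -0.013 to 0.26 for Col15a1, -0.087 to 0.018 for Col18a1, -0.40 to 0.28 for Nid1, -0.012 to 0.26 for Dcn, -0.48 to 0.063 for Lum, -0.38 to 0.089 for Fbn1, -0.19 to 0.28 for Reln, -0.24 to 0.082 for Ecm1, -0.11 to 0.56 for Hgf and -0.17 to 0.14 for Rgs5. Without the filter on low counts 12 genes of the list were called, 11 lower and 1 higher, with 7 collagens lower, and DESeq2 also called 1 higher. Leaving out 1 library at a time called 1367 to 2987 genes over the whole table, fewest without a 16 h library (1641 without replicate 1, 1396 without replicate 2 and 1367 without replicate 3). It called 5 to 9 of the 36 genes, 5 to 9 lower and 0 to 1 higher, the 1 being Fn1 without 4 h replicate 1 or 4 h replicate 3. It gave 3 to 7 lower collagens and 0 quiescent markers, and in the 5 related lists 12 to 19 higher and 7 to 15 lower, against 19 and 16 with all libraries. The cause of these shifts was not tested. Whether replicate numbers pair the samples was not settled by the values. Deviations from the group means correlated at 0.088, 0.093 and 0.045 for equal numbers and at -0.14 to 0.066 for unequal ones. The 16 h replicate 3 correlated best with 4 h replicate 1 (0.066). With the replicate number as a block 2748 genes, 13 of the 36 genes (12 lower, 1 higher) and 7 collagens were called. Depth limits Tagln, Acta2 and other genes under 1 CPM most.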
